A study of Mus musculus with 12 samples.

Results

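MHC class II genes were followed in mouse adipose tissue during the first days of a high-fat diet (HFD). The set holds 7 genes, Cd74, H2-Aa, H2-Ab1, H2-Eb1, H2-DMa, H2-DMb1 and Ciita, listed by name, of 18193 genes with a probe set of their own on the array. All groups were C57Bl/6 mice raised on standard chow, of which fat gave 13% of the calories, and 6 weeks old when the diets began. They then stayed on that chow (4 arrays) or were switched to HFD, of which fat gave 46% of the calories, and kept on it 5 days (4 arrays) or 14 days (4 arrays). The labels name no fat depot and do not say how old the chow mice were when tissue was taken, so whether age differed between the groups is not known here. Adipose tissue RNA of each sample was read on an Affymetrix array of its own. Nothing states that each array held a separate animal, so a p-value here measures the spread between these samples.

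MHC class II molecules carry peptides from swallowed or endocytosed proteins to the cell surface, where helper T cells read them, and are made mainly by dendritic cells, macrophages and B cells. In fat they are known from resident macrophages and dendritic cells, and they can also be induced in adipocytes. H2-Aa and H2-Ab1 encode the alpha and beta chains of the I-A molecule, and H2-Eb1 encodes the beta chain of I-E. Cd74, the invariant chain, fills the groove of new class II molecules and guides them to endosomes. H2-DMa and H2-DMb1 form the H2-DM exchanger, which removes the last piece of Cd74 so that a peptide can bind. Ciita is the coactivator that switches these genes on together; it binds no DNA itself but docks on factors held at an X box and a Y box in their promoters, the RFX complex and NF-Y among them.

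The promoters are shown because Ciita is known to act through this layout. Of the 7 genes, 4 have an entry in the RefSeq promoter table of GRCm38.p6, which gives 250 bases before and 50 bases after an annotated start. In H2-Aa, H2-Eb1 and H2-DMb1 the X-box core GNAAC was followed after 28, 27 and 28 bases by the Y-box core ATTGG on the strand of the gene. Capitals mark these letters in the 300-base promoters of H2-Aa and H2-Eb1 and in a window of 62 bases of H2-DMb1.
H2-Aa (chr17:34287774-34288073, minus strand): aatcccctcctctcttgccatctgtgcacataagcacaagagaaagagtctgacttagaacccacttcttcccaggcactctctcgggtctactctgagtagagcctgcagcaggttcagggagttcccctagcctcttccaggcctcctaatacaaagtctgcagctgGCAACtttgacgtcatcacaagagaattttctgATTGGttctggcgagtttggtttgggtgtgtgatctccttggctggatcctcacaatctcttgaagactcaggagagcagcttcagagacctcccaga
H2-Eb1 (chr17:34305617-34305916, plus strand): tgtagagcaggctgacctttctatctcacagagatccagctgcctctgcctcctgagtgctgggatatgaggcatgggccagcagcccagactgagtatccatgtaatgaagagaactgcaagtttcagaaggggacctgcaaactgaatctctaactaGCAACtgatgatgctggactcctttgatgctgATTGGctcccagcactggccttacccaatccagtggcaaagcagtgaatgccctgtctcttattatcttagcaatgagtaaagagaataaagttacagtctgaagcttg
H2-DMb1 (chr17:34153085-34153146, plus strand): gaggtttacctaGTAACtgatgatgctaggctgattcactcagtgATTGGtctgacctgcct

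A pair of GNAAC and ATTGG separated by 24 to 32 bases occurred on either strand in 505 of all 32851 promoters of this length (1.54%). On the strand of the gene it occurred in 244 (0.743%). Of the other class II genes looked up, H2-Oa, H2-Ob and H2-Eb2 held the pair too, and H2-DMb2 and the 2 listed starts of H2-DMa did not hold the pair in this window. Relative to the start, the X-box core began at −81, −91 and −94 in H2-Aa, H2-Eb1 and H2-DMb1.

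**Figure D1:**
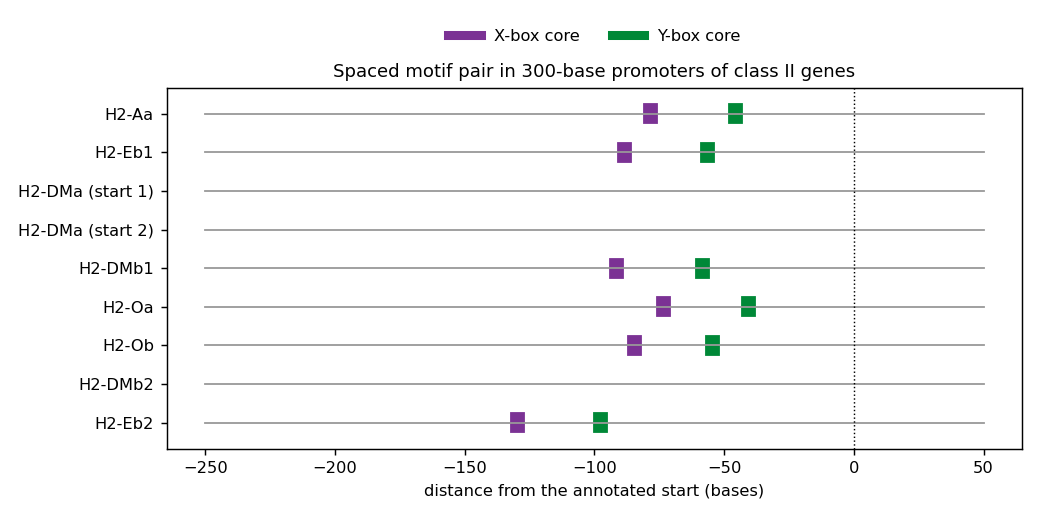
Position of the X-box core (purple) and the Y-box core (green) in 9 promoters of 8 class II genes, with the distance from the annotated start in bases on the x axis and 1 line per promoter. In the 6 promoters that hold the pair, it lies between −132 and the start.

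The first question is what 14 days of HFD did to these genes relative to chow. Signals of 6 of the 7 genes were lower by 0.55 to 0.68 log2 units after 14 days, which leaves 62.3% to 68.3% of the chow signal, and Ciita differed by −0.063. None of these differences passed the test: limma called 0 of 13311 genes at a Benjamini-Hochberg adjusted p under 0.05 (0%), with a lowest adjusted p of 0.362 among all genes. At an unadjusted p under 0.05, 573 genes were lower (4.3%) and 488 higher, and all 5 members tested in that fit were among the lower ones. The median difference was −0.63 over the 7 main probe sets and 0.02 over all genes tested.

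Cd74 stood at 12.80, 13.38, 13.01 and 12.31 in 14-day arrays 1 to 4, against 13.55, 13.50, 13.42 and 13.72 in chow arrays 1 to 4 (log2 signal, array numbers as labelled). All 14-day arrays lay below all chow arrays, and array 2 lay closest to chow. Means were 12.88 ± 0.45 after 14 days and 13.55 ± 0.12 in chow (SD, n = 4), a difference of −0.67 ± 0.18 (SE) with adjusted p = 0.467.

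For the I-A alpha chain, H2-Aa had 12.24, 12.97, 12.55 and 12.07 in the 14-day arrays, against 13.03, 12.96, 12.96 and 13.24 in chow. Here array 2 of the 14-day group lay inside the chow range, and the other 14-day arrays lay below it. The difference was −0.59 ± 0.18 (limma adjusted p = 0.513).

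The I-A beta chain gene H2-Ab1 had 11.65, 12.27, 11.89 and 11.15 in the 14-day arrays, against 12.46, 12.38, 12.29 and 12.56 in chow. The groups did not overlap, and array 2 of the 14-day group lay just under the lowest chow array. The difference was −0.68 ± 0.19 (limma adjusted p = 0.488).

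The I-E beta chain gene H2-Eb1 had 11.95, 12.48, 12.20 and 11.42 in the 14-day arrays, against 12.64, 12.59, 12.56 and 12.82 in chow. Again all 14-day arrays lay below all chow arrays, with a difference of −0.64 ± 0.18 (limma adjusted p = 0.489). Its partner chain gene H2-Ea is silent in the b haplotype of C57Bl/6 mice, as background. Of its 3 probe sets, those named 1422892_s_at and 1426202_at stayed between 5.26 and 5.58 and between 5.58 and 5.83 in all arrays, under the intensity filter of 7.64. Probe set 1422891_at stayed between 10.05 and 10.33 and differed by −0.09 ± 0.08 between 14 days and chow (limma adjusted p = 0.811), so the probe sets of H2-Ea disagree on its level.

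Among the peptide exchangers, H2-DMa had 9.27, 9.58, 9.42 and 8.67 in the 14-day arrays, against 9.71, 9.83, 9.71 and 9.89 in chow, with no overlap. The difference was −0.55 ± 0.16 (limma adjusted p = 0.51). H2-DMb1 has no probe set of its own here: both that carry its name are annotated to H2-DMb2 as well, a close paralog that lies next to it. The brighter shared probe set had 9.69, 10.12, 9.90 and 9.02 in the 14-day arrays, against 10.10, 10.41, 10.32 and 10.43 in chow, so that array 2 of the 14-day group lay just inside the chow range. Tested among all probe sets, it differed by −0.63 ± 0.20 (limma adjusted p = 0.515), and which of the genes it reports cannot be told apart.

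Ciita, the coactivator, was near the low end of the array. Its main probe set averaged 7.45 ± 0.17 after 14 days and 7.51 ± 0.03 in chow (SD, n = 4), under the intensity filter. In a fit without that filter the difference was −0.063, with a 95% interval from −0.24 to 0.11 (limma adjusted p = 0.884). It turned to 0.019 without 14-day array 4. The other Ciita probe sets differed by −0.10 and −0.15, and all 3 were below the filter.

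**Figure D2:**
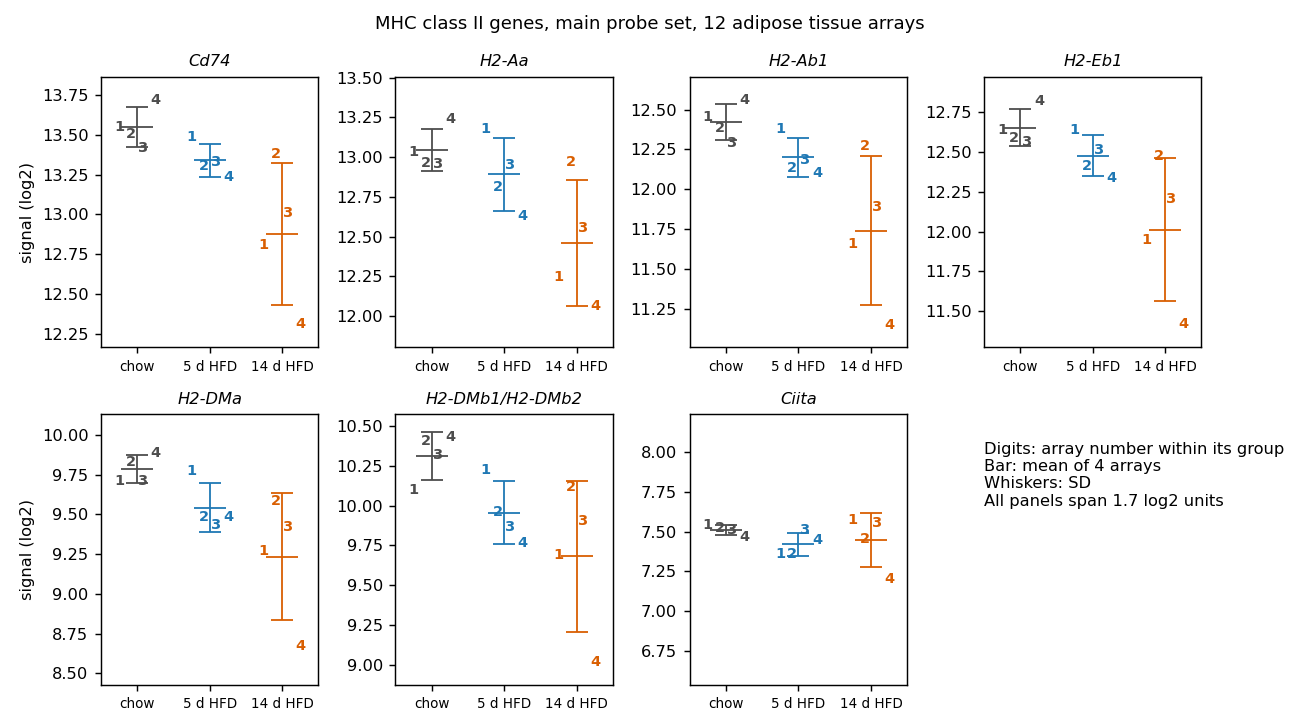
Log2 signal of the main probe set of each member (y axis) in chow, 5-day HFD and 14-day HFD arrays (x axis), where digits are array numbers, bars the mean of 4 arrays and whiskers the SD. Array 4 of the 14-day group is the lowest of 12 in all 7 panels, and 14-day array 2 sits close to chow.

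Counted over these 7 genes, groups without any overlap were seen in 4 of the 5 members of the gene fit, where 2.26% of all genes tested had all 14-day arrays below all chow arrays. The members varied together from array to array, so they are not separate observations. Array 4 of the 14-day group was the lowest of the 12 in 7 of 7 members and array 1 the second lowest in 6, Ciita being the exception. Chow array 4 was the highest in 6, again without Ciita. Pearson's r of a member with the mean of the other members over the 12 arrays, all groups pooled, was 0.94 to 0.99 for the others and 0.45 for Ciita. Relative to the chow mean, the median of the 6 members other than Ciita stood at −0.72, −0.17, −0.47 and −1.24 in 14-day arrays 1 to 4. Spread was therefore wide within the 14-day group, with an SD of 0.40 to 0.47 for the 6 main probe sets in 14-day arrays and of 0.09 to 0.15 in chow.

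Without 14-day array 4 the 6 members other than Ciita were still lower than in chow, with Cd74 at −0.48 ± 0.12, H2-Aa at −0.46 ± 0.16, H2-Ab1 at −0.49 ± 0.13, H2-Eb1 at −0.44 ± 0.12 and H2-DMa at −0.36 ± 0.10 (limma adjusted p = 0.482 for each), and the shared H2-DMb1 and H2-DMb2 probe set at −0.41. H2-DMa and that probe set thus differed by over 1.5 times less without this array. Without 14-day array 2 the same fit gave Cd74 −0.84 ± 0.14 (adjusted p = 0.0565) and H2-Ab1 −0.86 ± 0.15 (adjusted p = 0.0577). Array weights were 3.54, 0.38, 1.28 and 0.11 in 14-day arrays 1 to 4. Array 2, the 14-day array closest to chow in class II, thus counted far less than array 1. The weights were 3.20, 0.96, 1.27 and 0.26 in 5-day arrays 1 to 4, and 0.93 to 1.85 in chow. With these weights all 5 members of the gene fit passed the threshold, Cd74 at −0.66 ± 0.10 (limma adjusted p = 0.00647) and H2-DMa at −0.48 ± 0.09 (adjusted p = 0.0101). In that fit 7.74% of all genes were called lower and 22.4% in either direction. The same weights called all 5 between 14 and 5 days, where 6.36% of genes were called lower and 16.6% in either direction, and 0 of 5 between 5 days and chow, where these shares were 7.14% and 15.1%.

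Different probe sets of 1 gene gave the same direction at different sizes. All 16 probe sets of the members were lower after 14 days than in chow, 13 of them at an unadjusted p under 0.05, against 3.84% of 45037 probe sets lower at that level. In 7 of the 16 the groups did not overlap, as in 2.09% of all probe sets. At 5 days 1 of the 16 was lower at that level (5.3% of all) and 0 did not overlap (3.87%). Between 14 and 5 days these counts were 7 (0.748%) and 1 (0.306%). H2-Aa ran from −0.59 to −0.92 over 4 probe sets, and H2-Ab1 from −0.68 to −0.97 over 3. Probe set 1451721_a_at of H2-Ab1 had 10.55, 11.20, 10.98 and 9.78 in the 14-day arrays, against 11.56, 11.62, 11.44 and 11.77 in chow, the largest difference of the 16 at −0.97 ± 0.25 (limma adjusted p = 0.424). For both I-A genes the brightest probe set gave the smallest difference. The dim probe set of H2-DMa, close to the filter at 7.65 ± 0.10 after 14 days and 7.79 ± 0.08 in chow, differed by only −0.15.

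**Figure D3:**
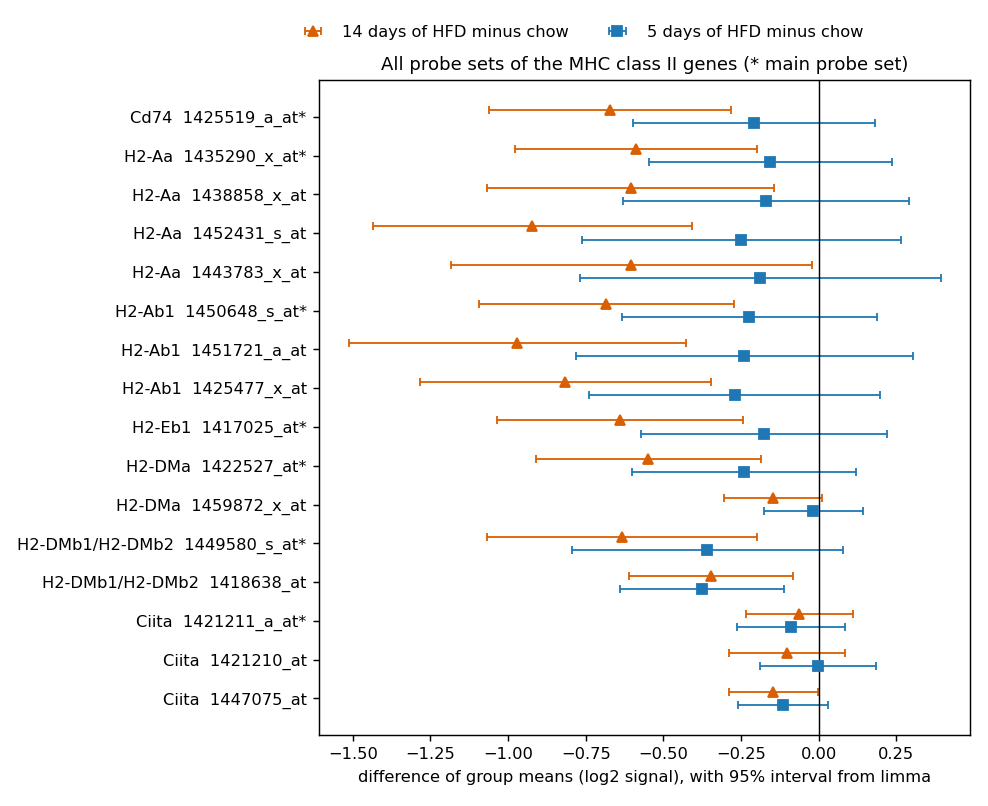
Difference of group means in log2 signal (x axis) for each of the 16 probe sets (rows, asterisks mark the main one), with 95% intervals from limma, for 14 days of HFD minus chow (orange triangles) and 5 days of HFD minus chow (blue squares). The 14-day differences run from −0.97 to −0.06 and the 5-day differences from −0.38 to 0.00.

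After 5 days of HFD the means of Cd74, H2-Aa, H2-Ab1, H2-Eb1 and H2-DMa lay between those of 14 days and chow, closer to chow. The shared H2-DMb1 and H2-DMb2 probe set lay between them too, closer to 14 days, and Ciita averaged 7.42 after 5 days, under both its 14-day and its chow mean. This comparison shares the chow arrays with the one above, so both move with the same chow values. The median over the 7 main probe sets was −0.21 against 0.00 over all genes, all 7 were lower, none passed an unadjusted p under 0.05, where 5.67% of genes were lower at that level, and none had all 5-day arrays below all chow arrays, as 4.77% of genes did. limma called 0 of 13311 genes (0%), with 755 lower and 590 higher at an unadjusted p under 0.05.

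Cd74 stood at 13.49, 13.30, 13.33 and 13.23 in 5-day arrays 1 to 4, against chow values of 13.42 to 13.72. Array 1 lay inside the chow range and the others below it, a difference of −0.21 ± 0.18 (limma adjusted p = 0.734). H2-Eb1 had 12.64, 12.41, 12.52 and 12.34 in the 5-day arrays, against 12.56 to 12.82 in chow, a difference of −0.18 ± 0.18 (adjusted p = 0.784).

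H2-Aa and H2-Ab1 differed by −0.16 ± 0.18 and −0.22 ± 0.19 at 5 days. In all 6 main probe sets other than Ciita, 5-day array 1 lay inside the chow range. H2-DMa had 9.77, 9.48, 9.43 and 9.48 in the 5-day arrays and differed from chow by −0.24 ± 0.16. The largest 5-day differences belonged to the probe sets shared by H2-DMb1 and H2-DMb2, −0.36 ± 0.20 (limma adjusted p = 0.61) and −0.38 ± 0.12 (adjusted p = 0.397). The dimmer of them was the 1 member probe set past an unadjusted p of 0.05 at 5 days, with 8.22, 7.87, 7.95 and 7.94 in 5-day arrays, against 8.20, 8.48, 8.37 and 8.43 in chow. It stood at 8.02 ± 0.24 after 14 days and 7.99 ± 0.15 after 5 days (SD, n = 4), while the I-A and I-E probe sets were lower after 14 than after 5 days. Ciita differed by −0.09, with a 95% interval from −0.26 to 0.08.

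Set against 5 days, the 14-day arrays had a median difference of −0.43 over the 7 genes, while all genes had a median of 0.01. Cd74, H2-Aa, H2-Ab1 and H2-Eb1 differed by −0.46 ± 0.18, −0.43 ± 0.18, −0.46 ± 0.19 and −0.46 ± 0.18, and H2-DMa by −0.31 ± 0.16 (limma adjusted p = 0.999 for each). The first 4 of these passed an unadjusted p under 0.05, as did 0.789% of genes in that direction, and 0 of the 7 main probe sets had all 14-day arrays below all 5-day arrays, as 0.278% of genes did. The order of means was therefore chow, 5 days, 14 days from high to low for the 6 genes other than Ciita, but neighbours in it did not differ beyond their spread at the adjusted threshold. limma called 0 genes here (0%), with 105 lower and 235 higher at an unadjusted p under 0.05. Without 14-day array 4 the median was −0.26.

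Other genes of the class II route had smaller differences. Of 10 accessory genes with a probe set, 7 passed the intensity filter and all 7 were lower after 14 days, with a median of −0.10. At an unadjusted p under 0.05 1 of them was lower, as were 4.3% of all genes, and 0 passed the adjusted threshold. Ctss, the protease that trims Cd74, had 11.27, 11.68, 11.61 and 10.52 in the 14-day arrays, against 11.75, 11.64, 11.52 and 11.76 in chow, and differed by −0.40 ± 0.21 (limma adjusted p = 0.673). Only array 1 and array 4 lay below chow in that gene. Ifi30, the lysosomal thiol reductase, and Lgmn, an endosomal protease, differed by −0.01 ± 0.22 and −0.10 ± 0.12. H2-DMb2 on its own probe set differed by −0.34 ± 0.15. H2-Oa and H2-Ob, which form the H2-DO modulator of H2-DM, and Marchf1, the ubiquitin ligase that removes class II from the surface, were below the filter. In the fit without it they differed by −0.14 ± 0.07, −0.38 ± 0.15 and −0.42 ± 0.18 after 14 days (limma adjusted p = 0.737, 0.682 and 0.704).

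Factors that hold Ciita at the promoter showed no common direction after 14 days, with 3 of 7 lower and a median of 0.00. Rfx5, the X-box factor, had 9.32, 9.43, 9.25 and 9.52 in the 14-day arrays, against 9.45, 9.37, 9.33 and 9.37 in chow, a difference of 0.00 ± 0.07. After 5 days it had 9.21, 9.23, 9.14 and 9.10, all below all chow arrays, a difference of −0.21 ± 0.07 (limma adjusted p = 0.354). Nfya, a subunit of the Y-box factor, differed by −0.23 ± 0.09 after 14 days and −0.26 ± 0.09 after 5 days. In the interferon gamma route that induces Ciita, 5 of 7 measured genes were lower after 14 days with a median of −0.07. Its transcription factor Irf1 differed by −0.27 ± 0.10 after 14 days and by −0.29 ± 0.10 after 5 days, and Ifng itself was below the filter. Among costimulatory genes 3 of 5 were lower after 14 days, with Cd86 at −0.25 ± 0.13 and Cd274, which encodes the checkpoint ligand PD-L1, at −0.35 ± 0.17. The third, Icosl, differed by −0.23 ± 0.10 after 14 days and −0.26 ± 0.10 after 5 days (limma adjusted p = 0.615 and 0.432). No gene of these lists passed the adjusted threshold in any comparison.

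Genes that lie between H2-DMb1 and H2-Ob on chromosome 17 in GRCm38.p6, Psmb9, Tap1, Psmb8 and Tap2, serve class I loading. Psmb8 differed by −0.56 ± 0.12 after 14 days and −0.42 ± 0.12 after 5 days (limma adjusted p = 0.407 and 0.347), and Psmb9 by −0.50 ± 0.13 and −0.44 ± 0.13. Their 5-day differences were thus closer to the 14-day ones than those of the class II chains were, a contrast that was not tested.

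Macrophage, dendritic cell and general leukocyte markers had lower means after 14 days, B cell markers had no common direction, and none passed the adjusted threshold. Of 14 macrophage markers all 14 were lower after 14 days, 8 at an unadjusted p under 0.05 and 0 at the adjusted threshold. Of all genes tested, 4.3% were lower at that unadjusted level. The median of the macrophage markers was −0.49, and the list averaged 9.89 to 10.96 in the 14-day arrays against 10.999 to 11.20 in chow. Cd14, the gene of smallest p in this list, differed by −0.86 ± 0.13 after 14 days and −0.54 ± 0.13 after 5 days (limma adjusted p = 0.362 and 0.322). Cd14 stood apart at 5 days: 12 of the 14 macrophage markers were lower, but with a median of −0.11. Only Cd14 was lower at an unadjusted p under 0.05 then, as were 5.67% of all genes. Of 5 general leukocyte markers all 5 were lower, 2 of them at an unadjusted p under 0.05, their median was −0.47, and the list averaged 9.37 to 10.30 in 14-day arrays against 10.30 to 10.47 in chow. Of 10 dendritic cell markers 7 were tested and all 7 were lower, with a median of −0.15, and the list averaged 9.28 to 9.57 in 14-day arrays against 9.42 to 9.78 in chow. That average hides a split in 14-day array 4, where Cd24a was above its chow range at 13.17 and Flt3 inside its own. Zbtb46, Itgax, Cd209a, Clec10a and Batf3 were below their chow ranges there, at 9.091, 8.532, 7.843, 9.125 and 8.575. Clec10a and Cd209a, lectins of dendritic cells and macrophages, differed by −0.56 ± 0.21 and −0.44 ± 0.16, and Flt3, the receptor that drives dendritic cell growth, by −0.01 ± 0.09. Of 8 B cell markers 2 passed the filter, Ms4a1 at −0.07 ± 0.16 and Pax5 at 0.00 ± 0.06, and Cd79a, Cd79b, Blk, Cr2 and Fcer2a were below it, 3 of these 5 with a higher 14-day mean. All 4 T and NK cell markers tested were lower, with a median of −0.04 and 0 at an unadjusted p under 0.05. In whole tissue, fewer cells of a type and less RNA per cell cannot be told apart.

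**Figure D4:**
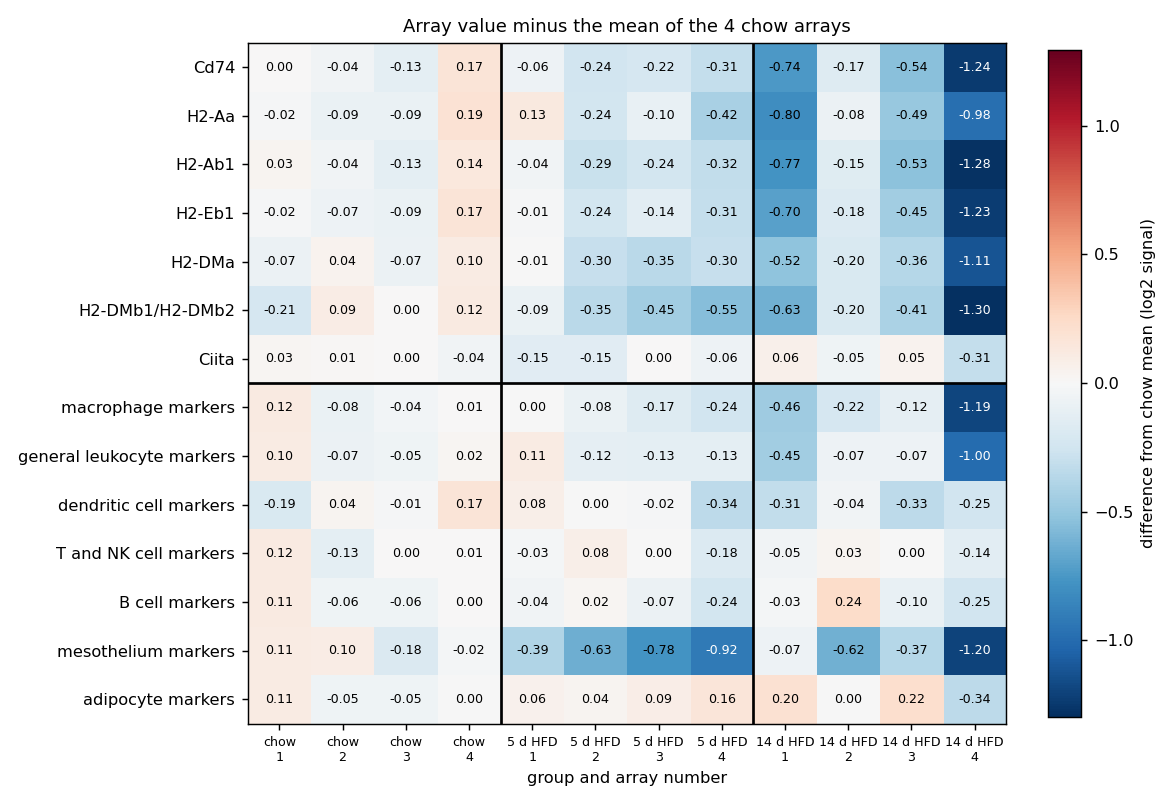
Each array's value minus the mean of the 4 chow arrays in log2 signal (colour and printed numbers), for the 7 members (upper rows) and for means of marker lists (lower rows), with arrays in columns. In 14-day array 4 the class II rows other than Ciita lie between −1.30 and −0.98 and the macrophage and leukocyte rows are low too, whereas in 14-day array 3 those class II rows lie between −0.54 and −0.36 and the leukocyte row is near 0.

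In 14-day array 3 the leukocyte marker mean was 10.30, just inside the chow range. Of that list, Ptprc, Coro1a and Cd53 lay just below their chow ranges there, at 10.043, 9.86 and 10.315, and the others inside. The macrophage mean was 10.96 in that array, under its chow range. The dendritic cell mean was 9.28, also under its chow range. That list holds Cd24a, which stood at 9.39 there and at 9.725 to 12.11 in chow. Flt3 and Itgax lay inside their chow ranges in that array, Batf3 above, and Zbtb46, Cd209a and Clec10a below. The 6 class II members other than Ciita stood at −0.54 to −0.36 there, relative to their chow means. In 14-day array 4 the leukocyte mean was 9.37, under the chow range, and those class II members stood at −1.30 to −0.98. Of the leukocyte markers, Lcp1 was above its chow range there, at 10.453, and the others were below theirs. With the leukocyte marker mean as a covariate, a setting chosen after the data were seen, Cd74 differed by −0.30 ± 0.10 after 14 days (limma adjusted p = 0.764) and the median of the 7 genes was −0.26. With the macrophage marker mean in its place, Cd74 differed by −0.26 ± 0.12 (adjusted p = 0.496) and the median was −0.21.

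**Figure D5:**
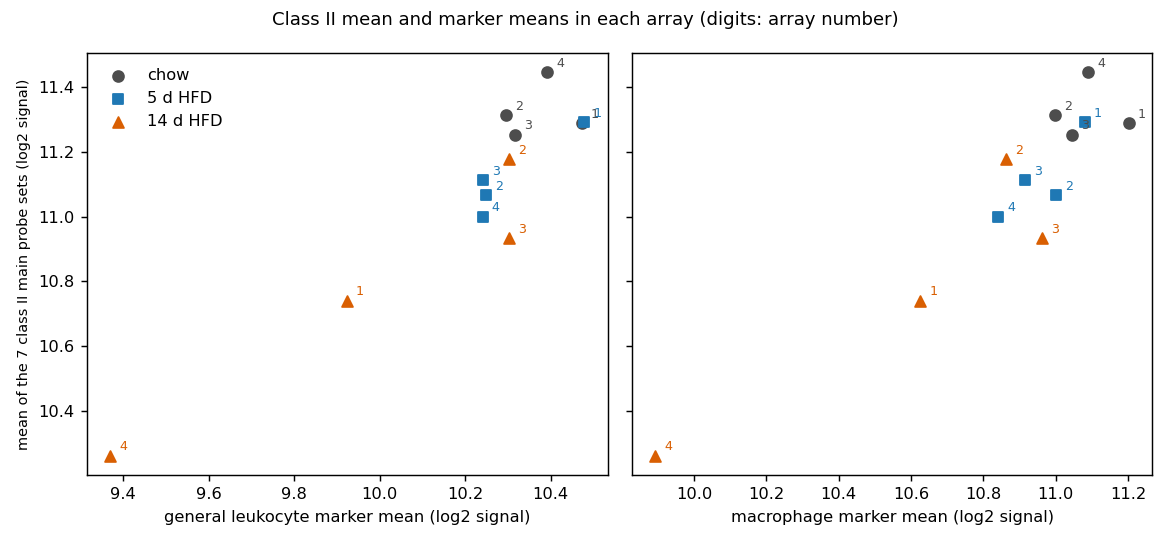
Mean log2 signal of the 7 class II main probe sets (y axis) against the general leukocyte marker mean (left) and the macrophage marker mean (right) in each array, with digits for array numbers. Array 4 of the 14-day group lies apart at the lower left, and 14-day array 3 lies below chow arrays of similar leukocyte mean.

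Transcripts of neighbouring tissues also varied between arrays. The part of epididymis, liver and skeletal muscle in the class II values was examined only through covariates, and that of the adipocyte and smooth muscle markers was not tested. The adipocyte marker mean was 13.65 in 14-day array 4, the array lowest in class II, and 13.94 to 14.21 in the other 11 arrays. All 6 adipocyte markers tested were lowest in that array, among them Lep, which encodes leptin, at 11.56, and Adipoq, which encodes adiponectin, at 14.90. Smooth muscle markers averaged 9.52 to 10.20 in chow, 11.93 and 11.97 in 5-day arrays 1 and 2, 13.61 in 14-day array 4 and 9.12 to 10.53 in the other 14-day arrays. The epididymis marker mean was 14.46 in 14-day array 4, 11.93 to 12.93 in 5-day arrays 1 to 3 and 6.91 to 8.51 elsewhere. The liver marker mean was 13.18, 9.14, 11.94 and 9.22 in 14-day arrays 1 to 4. It was 9.47, 11.88, 9.70 and 13.63 in 5-day arrays 1 to 4, and 7.85 to 12.40 in chow. The skeletal muscle marker mean was 13.20 in chow array 3, 12.83 in 5-day array 2 and 8.28 to 9.55 in the other arrays. Relative to chow, the median of the 6 class II members other than Ciita was −1.24 in 14-day array 4 and −0.03, −0.27 and −0.23 in 5-day arrays 1 to 3. In the other HFD arrays it was −0.32 (5-day array 4) and −0.72, −0.17 and −0.47 (14-day arrays 1 to 3). With it as a covariate the class II median was −0.56 after 14 days and −0.023 after 5 days. With epididymis, liver and skeletal muscle means together it was −0.32 after 14 days and turned to 0.21 after 5 days. Mesothelial markers were lower in 7 of 8 after 14 days, with a median of −0.65, and in 8 of 8 after 5 days, with a median of −0.68. Their mean in 14-day array 1 was 10.66, inside the chow range of 10.55 to 10.84, although class II was low in that array. As a measure of RNA integrity, the 3' minus 5' signal of pyruvate carboxylase was 2.83 in 5-day array 4 and 1.59 to 2.18 in the other arrays. The same measure for Gapdh was 0.276 in 14-day array 2, the 14-day array closest to chow in class II, 0.272 in 5-day array 4 and 0.064 to 0.134 elsewhere, and for beta actin it was highest in 14-day array 2, at 0.547. Its part in the class II values was not tested.

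The genes most like the class II mean over the 12 arrays were ranked by Pearson's r among all other genes tested, as a description in which all groups are pooled. Cyba, a subunit of the phagocyte NADPH oxidase, came first with r = 0.98 (Spearman 0.99), followed by the matrix metalloproteinase Mmp23, the small proteoglycan Ogn and the collagen chain Col1a2, each at r = 0.96. Ly86, which encodes a partner of a Toll-like receptor homologue on B cells and macrophages, and Clec10a both had r = 0.95, as did Ms4a4d and Lrrc17. The list thus mixes leukocyte genes with genes of the extracellular matrix. Cyba averaged 11.35 in chow, 11.16 after 5 days and 10.76 after 14 days, and differed by −0.59 ± 0.19 between 14 days and chow (limma adjusted p = 0.549). Without 14-day array 4 its r was 0.96, and the r of the other 7 genes ran from 0.87 to 0.90.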

How the data were processed

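RNA of 12 adipose tissue samples was measured on single-colour Affymetrix arrays, labelled by in vitro transcription from an oligo(dT) primer per the labels' protocols. The authors deposited 1 table of 45098 probe sets whose values are in log2 units, judged from their range of 4.18 to 15.50; the summarising and normalization are not given in the sources used here, and the values were used as deposited. The median of an array lay between 8.09 and 8.14. Precision is limited by the number of arrays.

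Gene names came from the platform's annotation: 34945 carried 1 gene symbol, 932 several and 9160 none, beside 61 controls. Each gene was represented by its probe set of highest mean, and a filter at 7.64, percentile 40 of the probe set means, kept 13311 genes. One limma model (version 3.58.1, R 4.3.3, eBayes with trend) held all 12 arrays; tests were two-sided, and a call needed a Benjamini-Hochberg adjusted p below 0.05 over all genes tested. Ciita was tested without the filter, and secondary and shared probe sets among all probe sets. The median over the 7 genes has no test. Named genes were the members, fixed pathway and marker lists (up to 3 genes of smallest p per list and comparison, and genes below the filter), H2-Ea, and the 8 genes of highest r with the class II mean. Flt3, Cd24a, Adipoq and Lep were singled out after their values were seen. The members and lists were chosen with earlier results of these data known. The procedure was tested on simulated data. Alternatives were other normalizations, filters, probe set rules, moderation, array weights, covariates, a replicate block and leaving out arrays.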

Additional observations from a re-analysis of the deposited data

Results flagged for a closer look

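H2-DMa stood at 9.77 in 5-day array 1, apart from the other arrays of that group, which lay at 9.43 and 9.48. Its gap to the nearest of them took up 0.846 of the group's range, above Dixon's 95% critical value for 4 samples. Of 48 groups of 4 arrays examined over the 16 probe sets this was the 1 that exceeded it, and chance alone flags about 1 in 20.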

How the results depend on the processing

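Over 28 alternatives, 12 of them leaving out 1 array, the class II median kept its sign at 14 days against chow and at 14 against 5 days. At 5 days against chow it was −0.023 with the epididymis covariate and 0.21 with the epididymis, liver and skeletal muscle covariates. In that last fit Cd74, H2-Aa, H2-Ab1, H2-Eb1, H2-DMa and H2-DMb1 stood at 0.26, 0.21, 0.29, 0.25, 0.18 and 0.12, and with the epididymis covariate alone H2-Eb1 was 0.0099 and Ciita 0.014. At 14 days against chow the median was −0.32 with the 3 covariates, −0.26 with the leukocyte and −0.21 with the macrophage covariate; at 14 against 5 days it was −0.13 and −0.14 with the leukocyte and macrophage covariates, where H2-DMb1 turned to 0.057 and 0.065. Leaving out 1 array at a time, the medians ran from −0.26 to −0.15, from −0.78 to −0.44 and from −0.60 to −0.26 in the 3 comparisons.

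Ciita changed sign at 14 days against chow with array weights (0.048), without both HFD arrays numbered 4 (0.019) and with the leukocyte (0.040) or macrophage (0.071) covariate, and ran from −0.104 to 0.019 with 1 array left out, the highest without 14-day array 4. At 14 against 5 days it changed sign with the mean of its probe sets (−0.034), the epididymis (−0.030) or 3 covariates (−0.033), and ran from −0.015 to 0.108 with 1 array left out, negative without 14-day array 1 or 3. The cause was not tested. Members called moved from 0 to 5 at 14 days against chow and at 14 against 5 days with array weights, and stayed at 0 in every other alternative.

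Genes called over the whole table, 0 in each comparison, numbered 2015, 2979 and 2212 with array weights. At 5 days against chow they numbered 213 when only these groups were fitted, 525 with the epididymis covariate, 881 without both HFD arrays numbered 4, and 0 to 123 with 1 array left out, the highest without 14-day array 4. At 14 days against chow they numbered 0 to 20 with 1 array left out, the highest without 14-day array 2, and 1 without both. At 14 against 5 days they numbered 38 with the epididymis covariate, 723 without both and 0 with any 1 array left out. The arrays share replicate numbers without being paired: same-numbered arrays had correlations of deviations from −0.73 to 0.41, and under the replicate block 0 members were called, with Cd74 at −0.67 (limma adjusted p = 0.577) at 14 days against chow.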
